A study of Mus musculus with 11 samples.

Results

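The 10 genes described here are feedback components and nuclear factors of Wnt/β-catenin signalling, chosen by symbol: Axin2, Nkd1, Nkd2, Apcdd1, Rnf43 and Znrf3, the factors Tcf7l1, Lef1 and Tcf7, and Sp5. Each matched 1 of the 24138 loci of the deposited expression table, and none was joined with another symbol. RNA was measured in the E14.5 mouse cortex in 2 Chd8 conditional knockout (cKO) libraries and 3 control libraries. The cKO libraries were labelled Chd8 c/c with Emx1-cre, a driver that expresses Cre in the progenitors of the dorsal telencephalon, so cells of other lineages kept the gene. The controls carried floxed alleles without a Cre in their label: control replicate 1 was c/+, and control replicates 2 and 3 were c/c. All 5 libraries therefore carried at least 1 floxed Chd8 allele. Nothing in the labels says how many embryos made up a library, so p-values measure the spread between these libraries, which may be technical. A protocol field of the expression samples names an Eed knockout, whereas titles and genotypes name Chd8. The 6 ATAC-seq samples of the series were not analysed here.

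Wnt ligands bind Frizzled and LRP receptors and thereby stabilise β-catenin, which enters the nucleus and activates genes bound by TCF/LEF factors. Many of the activated genes restrain the pathway in turn, so their RNA is widely used as a readout of its activity. In the embryonic telencephalon the cortical hem is a source of Wnt ligands, and the pathway is known for its roles in medial cortical fate and in progenitor expansion. Chd8 encodes a chromatin remodeller that has been described, in cultured cells, as a β-catenin-binding repressor of Wnt targets.

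TCF/LEF factors recognise a core of CTTTGA in DNA. It was searched on both strands in the 250 bases before each RefSeq transcript start in GRCm38.p6, where windows were held for 8 of the 10 genes (13 windows, none for Znrf3 and Apcdd1). Over all 32851 windows 13.8% held the core and 1.37% held at least 2 copies. Of the 13 windows of these genes, 2 held it, and both held 2 copies. These were the windows of Sp5 and of an internal start of Lef1, 1 of 4 Lef1 windows. The longer form CTTTGAT, which contains the core, was in 3.21% of all windows and in the Sp5 window. Both of these windows are shown because Lef1 and Sp5 also shared an expression pattern, described below. A link between the core and that pattern was not tested. The Lef1 window at the start of the gene, 131110297, held no core. Whether the internal Lef1 start, 131156294, was used in these libraries was not tested. The windows of Axin2 and Nkd1, which followed another pattern, are shown beside those of Sp5 and Lef1. Their starts, 108920349 and 88527633, are internal too, since the gene spans begin at 108917828 and 88521342. No window was held for the outer ends of Axin2 and Nkd1. Capitals mark the core, or TCAAAG where it lies on the opposite strand, and all 4 are on the plus strand. Sp5 is at chr2:70474673-70474922, Lef1 at chr3:131156044-131156293, Axin2 at chr11:108920099-108920348 and Nkd1 at chr8:88527383-88527632.
Sp5: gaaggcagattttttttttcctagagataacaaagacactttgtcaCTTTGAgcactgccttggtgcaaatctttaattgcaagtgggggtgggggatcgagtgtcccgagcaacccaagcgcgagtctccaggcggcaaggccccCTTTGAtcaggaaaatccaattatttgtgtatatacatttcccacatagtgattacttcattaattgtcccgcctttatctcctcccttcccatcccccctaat
Lef1: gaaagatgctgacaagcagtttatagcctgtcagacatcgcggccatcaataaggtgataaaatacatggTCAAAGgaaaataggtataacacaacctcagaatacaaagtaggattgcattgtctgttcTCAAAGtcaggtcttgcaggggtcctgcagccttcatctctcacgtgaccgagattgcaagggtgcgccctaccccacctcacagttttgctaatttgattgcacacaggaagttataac
Axin2: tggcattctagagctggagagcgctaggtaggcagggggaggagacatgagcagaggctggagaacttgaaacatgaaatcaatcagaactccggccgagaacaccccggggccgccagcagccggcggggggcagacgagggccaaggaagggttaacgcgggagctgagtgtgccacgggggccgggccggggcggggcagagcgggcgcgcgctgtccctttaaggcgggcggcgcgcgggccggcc
Nkd1: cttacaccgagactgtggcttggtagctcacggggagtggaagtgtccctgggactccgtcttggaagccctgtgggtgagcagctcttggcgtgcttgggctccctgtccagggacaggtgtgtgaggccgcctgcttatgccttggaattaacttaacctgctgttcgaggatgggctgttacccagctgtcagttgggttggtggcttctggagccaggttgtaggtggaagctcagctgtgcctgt
In Sp5 the copies began 204 and 104 bases before the transcript start, and in Lef1 180 and 120 bases before it. A match describes these letters and does not show that a factor binds there, and a window without a match says nothing about sites elsewhere.

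Levels are FPKM as deposited, that is, fragments scaled to transcript length and to library size, which allows comparison between genes. A log2 change is the cKO mean minus the control mean of log2(FPKM + 1), a scale on which changes of low genes appear smaller. The 12672 loci that averaged 1 FPKM or more were tested with limma, and p-values were adjusted over them by Benjamini-Hochberg. Rnf43 did not reach the minimum. The other 9 genes had means above it in each group. The summed FPKM of a library ranged from 418191 to 484296, and sequencing depth is unknown. Chd8 itself was 19.3 and 15.1 FPKM in the cKO libraries, against 31.5, 30.02 and 31.8 FPKM in control replicates 1 to 3. Its log2 change was -0.83 (SE 0.15, limma adjusted p = 0.575; exact permutation p = 0.1). In whole tissue, fewer cells expressing a gene and less RNA per cell cannot be told apart.

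In 5 of the 9 tested genes (Axin2, Nkd1, Apcdd1, Tcf7l1 and Lef1) both cKO libraries lay below every control, against 15.6% of all tested loci. None of the 9 lay above every control, against 13.4% of all tested loci. The median log2 change of the 9 was -0.72, against -0.02 over all tested loci, and 7 of the 9 were negative, against 53.1% of all tested loci. No member passed limma's test over all loci at an adjusted p under 0.05, in either direction. At that threshold 0.0316% of loci were called lower and 0.0158% higher. At an unadjusted p under 0.05, 4 of the 9 were lower (Axin2, Nkd1, Apcdd1 and Tcf7l1), against 4.37% of loci, and none was higher, against 3.08%. Of the 9, the authors' deposited table had 6 marked significant and lower in the knockout (these 4, Lef1 and Sp5), against 3.0% of the loci with a completed test. None of the 9 was marked significant and higher there, against 1.21%.

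**Figure D1:**
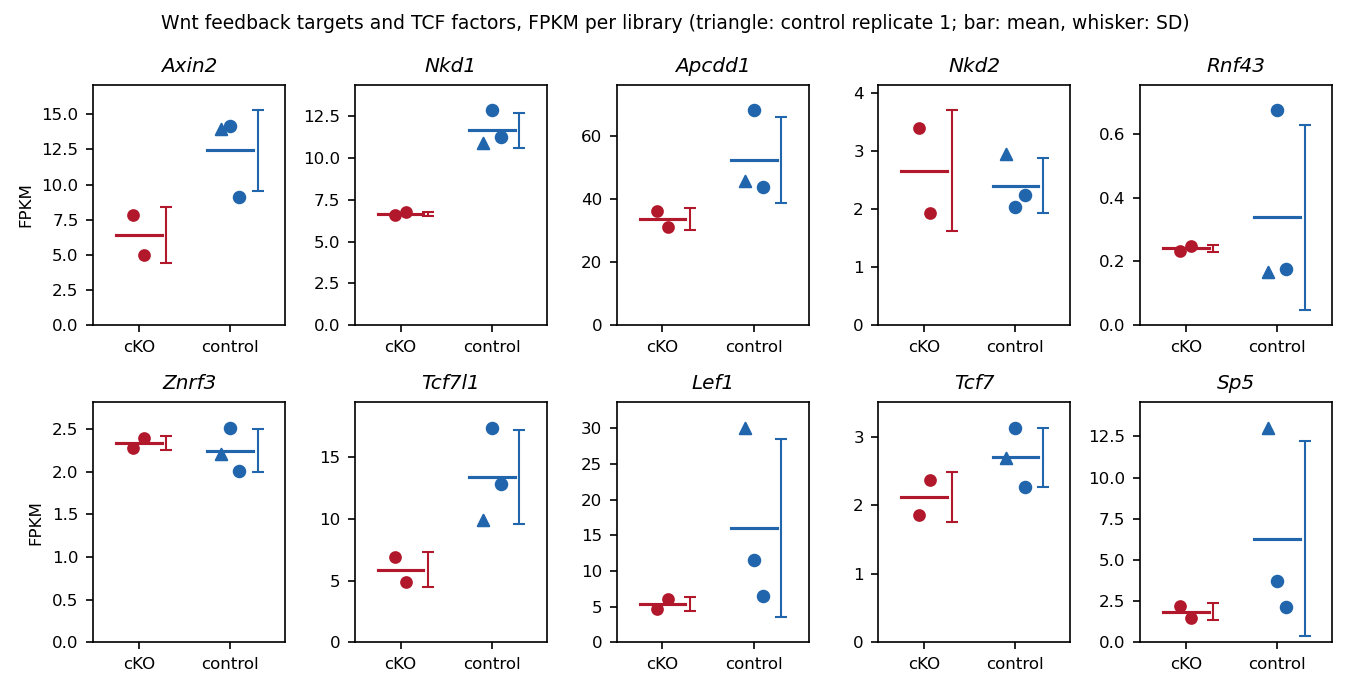
FPKM of the 10 genes in each library (y axes, from 0), cKO on the left and control on the right of each panel. Points are libraries, the triangle is control replicate 1, bars are group means and whiskers are SD (n = 2 cKO, n = 3 control). The groups are separate for Axin2, Nkd1, Apcdd1, Tcf7l1 and Lef1, and control replicate 1 stands far above the rest for Lef1 and Sp5.

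Among the feedback inhibitors, Axin2, Nkd1 and Apcdd1 were lower in both cKO libraries than in any control, whereas Nkd2, Znrf3 and Rnf43 overlapped between groups. Axin2 encodes a scaffold of the complex that degrades β-catenin and lies on chromosome 11 (108917828 to 108950783 in GRCm38). It had 7.81 and 4.99 FPKM in cKO replicates 1 and 2, against 14, 14.2 and 9.13 FPKM in control replicates 1 to 3. Its cKO mean was 51.5% of the control mean, and the nearest libraries, cKO replicate 1 and control replicate 3, were 7.81 and 9.13 FPKM. The log2 change was -0.86 (SE 0.26, limma adjusted p = 0.575), and the two-sided exact permutation p over the libraries was 0.2.

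Nkd1, which encodes a Dishevelled-binding inhibitor of the pathway, had the smallest standard error of the 9 tested genes. It lies on chromosome 8 (88521342 to 88594887). It had 6.58 and 6.75 FPKM in the cKO libraries, against 10.9, 12.9 and 11.3 FPKM in control replicates 1 to 3. Its means were 6.66 ± 0.125 FPKM in cKO (SD, n = 2) and 11.7 ± 1.05 FPKM in control (SD, n = 3). The log2 change was -0.72 (SE 0.13, limma adjusted p = 0.575), with an exact permutation p of 0.1, the smallest that the 10 splits of 5 libraries allow.

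Apcdd1, which encodes a membrane glycoprotein that binds Wnt ligands and LRP receptors and inhibits signalling, was the most abundant of the 10 genes. It had 36.1 and 31.1 FPKM in the cKO libraries, against 45.5, 68 and 43.6 FPKM in control replicates 1 to 3. The cKO mean was 64.2% of the control mean, and control replicate 2 stood above the other 4 libraries. The log2 change was -0.60 (SE 0.23, limma adjusted p = 0.575; exact permutation p = 0.1).

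The remaining feedback inhibitors were low and showed no separation. Nkd2, the paralog of Nkd1, had 3.4 and 1.93 FPKM in the cKO libraries, against 2.95, 2.04 and 2.24 FPKM in control replicates 1 to 3. The cKO libraries were the highest and the lowest of the 5, and the 95% interval of the log2 change was -0.54 to 0.71. Znrf3, which encodes a transmembrane ubiquitin ligase that removes Frizzled receptors from the cell surface, had 2.28 and 2.39 FPKM in the cKO libraries, against 2.21, 2.52 and 2.01 FPKM in the controls. Both cKO values lay within the range of the controls, with an interval of -0.39 to 0.48. Its relative Rnf43 had 0.233 and 0.249 FPKM in the cKO libraries, against 0.167, 0.673 and 0.176 FPKM in the controls. These values are too low to read a difference from. Without a filter on low values the log2 change of Rnf43 was -0.09, with an interval of -0.54 to 0.36.

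Of the TCF/LEF factors, Tcf7l1 and Lef1 were lower in both cKO libraries than in any control, and Tcf7 overlapped. Tcf7l1 encodes the family member best known as a repressor of Wnt targets and lies on chromosome 6 (72626371 to 72789045). It had 6.86 and 4.87 FPKM in the cKO libraries, against 9.87, 17.4 and 12.8 FPKM in control replicates 1 to 3. Its cKO mean was 43.9% of the control mean, the lowest such percentage among the 4 genes at an unadjusted p under 0.05. The log2 change was -1.05 (SE 0.27, limma adjusted p = 0.575; exact permutation p = 0.1). Control replicate 1 was the lowest control for this gene, and without it the log2 change was -1.23.

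Lef1, an activating factor of the family and itself a Wnt target, lies on chromosome 3 (131110297 to 131224357). It had 4.72 and 6.1 FPKM in the cKO libraries, against 30.1, 11.5 and 6.43 FPKM in control replicates 1 to 3. The groups were separate, but by only the gap between cKO replicate 2 and control replicate 3, and control replicate 1 was 3.35 times the mean of the other controls. The log2 change was -1.16 (SE 0.59, limma adjusted p = 0.575) and -0.60 (SE 0.30, adjusted p = 0.353) without control replicate 1. The cKO mean was 33.8% of the mean of all 3 controls and 60.4% of the mean of control replicates 2 and 3. Tcf7, another member of the family, had 1.86 and 2.37 FPKM in the cKO libraries, against 2.69, 3.13 and 2.27 FPKM in the controls, and cKO replicate 2 lay above control replicate 3. Its log2 change was -0.24, with an interval of -0.73 to 0.24.

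Sp5, an Sp family zinc finger factor whose gene is a direct Wnt target on chromosome 2 (70474923 to 70477726), was, like Lef1, highest in control replicate 1. It had 2.23 and 1.5 FPKM in the cKO libraries, against 13, 3.74 and 2.12 FPKM in control replicates 1 to 3. The groups overlapped, since cKO replicate 1 lay above control replicate 3, and control replicate 1 was 4.45 times the mean of the other controls. The cKO mean was 29.6% of the mean of all 3 controls, and 63.7% of that of control replicates 2 and 3. The log2 change was -1.06 (SE 0.64, limma adjusted p = 0.589), and -0.44 (SE 0.28, adjusted p = 0.435) without control replicate 1.

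In the authors' deposited table, whose test used all 3 controls, the log2 fold change of knockout over wild type was -1.75 for Sp5 (q = 0.0102) and -1.56 for Lef1 (q = 0.00331). It was -1.19 for Tcf7l1 and -0.96 for Axin2, both with q = 0.00331 in the authors' deposited table. There it was -0.81 for Nkd1 (q = 0.0152) and -0.64 for Apcdd1 (q = 0.0241).

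**Figure D2:**
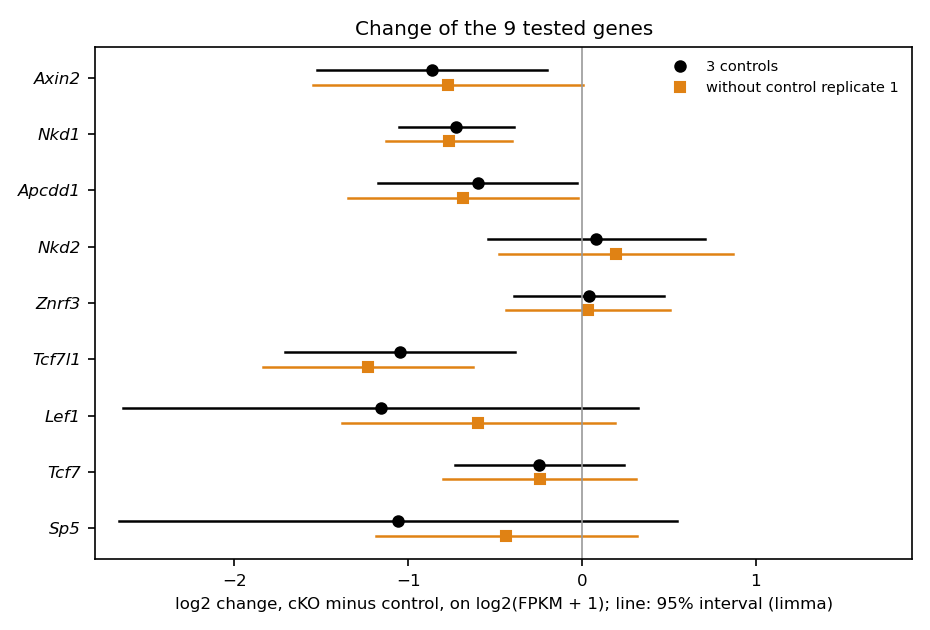
Log2 change of the 9 tested genes, cKO minus control, on log2(FPKM + 1) (x axis), with 95% intervals from limma. Black circles use 3 controls and orange squares leave out control replicate 1. Lef1 goes to -0.60 and Sp5 to -0.44 without that library, while Nkd1 (-0.77) and Tcf7l1 (-1.23) are no smaller.

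Leaving out control replicate 1, the c/+ control, left the count of genes with no overlap at 5 of 9, the same 5, where 28.8% of loci then lay below both remaining controls. None of the 9 lay above both, against 27.8% of loci. The median log2 change of the 9 was then -0.60, against -0.01 over all tested loci. At an unadjusted p under 0.05, 3 of the 9 were lower without it (Nkd1, Tcf7l1 and Apcdd1), against 7.68% of loci, and none was higher, against 8.07%. Axin2 then had an unadjusted limma p of 0.0509. No member was called at an adjusted p under 0.05, where 0.0957% of loci were called lower and 0.0239% higher.

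Control replicate 1 stood apart in several genes of the thalamus, a neighbouring brain region whose neurons express Tcf7l2 and Lef1. Of the 8 genes in the thalamus list, which includes Tcf7l2, 6 were highest in that library, against 24.1% of all tested loci. Among the 6, Prox1 was almost level, at 5.78 FPKM there and 5.75 FPKM in cKO replicate 1. Gbx2 was highest in control replicate 3, at 4.16 FPKM, against 2.92 FPKM in control replicate 1. Lhx2 was highest in control replicate 2. Tcf7l2, the fourth TCF/LEF gene, had 3.36 and 3.98 FPKM in the cKO libraries, against 78.5, 2.48 and 11.5 FPKM in control replicates 1 to 3. Shox2, a homeobox gene of the thalamus, had 0.191 and 0.0712 FPKM in the cKO libraries, against 28.3, 0.0431 and 0.603 FPKM in the controls, so its signal lay almost wholly in 1 library. The LIM homeobox gene Lhx9 had 7.09 and 6.94 FPKM in the cKO libraries, against 43, 8.12 and 9.17 FPKM in the controls. The list summed to 137 and 124 FPKM in cKO, against 307, 312 and 215 FPKM in control replicates 1 to 3. Lhx2, also a gene of the cortex, made most of each sum except that of control replicate 1. Without it, a choice made after seeing the values, the sums were 22.1 and 22.1 FPKM in the cKO libraries, against 167, 16.2 and 34 FPKM in control replicates 1 to 3. No marker of this list was at 0 in any library. The part of these genes in the values of Lef1 and Sp5 was not tested. Of all tested loci, 0.797% exceeded the highest other library in control replicate 1 by as much as Sp5 did (3.49 times), and 1.10% by as much as Lef1 (2.62 times). Axin2, Nkd1, Apcdd1 and Tcf7l1 were not highest in control replicate 1.

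**Figure D3:**
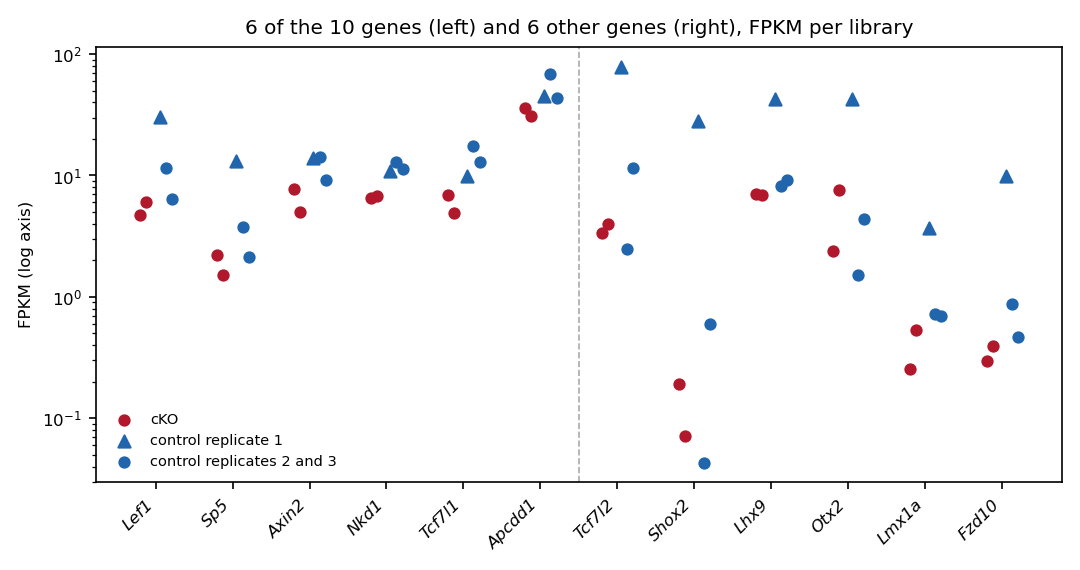
FPKM per library on a log axis for 6 of the 10 genes (left of the dashed line) and 6 other genes (right): Tcf7l2, the thalamic genes Shox2 and Lhx9, Otx2 and Lmx1a of the hem and choroid plexus list, and the Frizzled gene Fzd10. Red circles are cKO libraries and blue marks are controls, with control replicate 1 as a triangle. That library is highest for Lef1, Sp5 and all 6 genes on the right, and lies among or below the other controls for Axin2, Nkd1, Tcf7l1 and Apcdd1.

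The makeup of the TCF/LEF family varied between libraries. Tcf7l1, Lef1, Tcf7 and Tcf7l2 together summed to 16.8 and 17.3 FPKM in the cKO libraries, against 121, 34.5 and 33 FPKM in control replicates 1 to 3. As a share of that sum, Tcf7l2 made up 19.98 and 23% in the cKO libraries, against 64.8, 7.2 and 34.8% in control replicates 1 to 3. Without Tcf7l2 the sum of the other 3 factors was 13.5 and 13.3 FPKM in the cKO libraries, against 42.6, 32 and 21.5 FPKM in control replicates 1 to 3. The ratio of the Lef1 level to the Tcf7l1 level was 0.688 and 1.25 in the cKO libraries, against 3.05, 0.662 and 0.501 in control replicates 1 to 3, and was highest in control replicate 1.

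**Figure D4:**
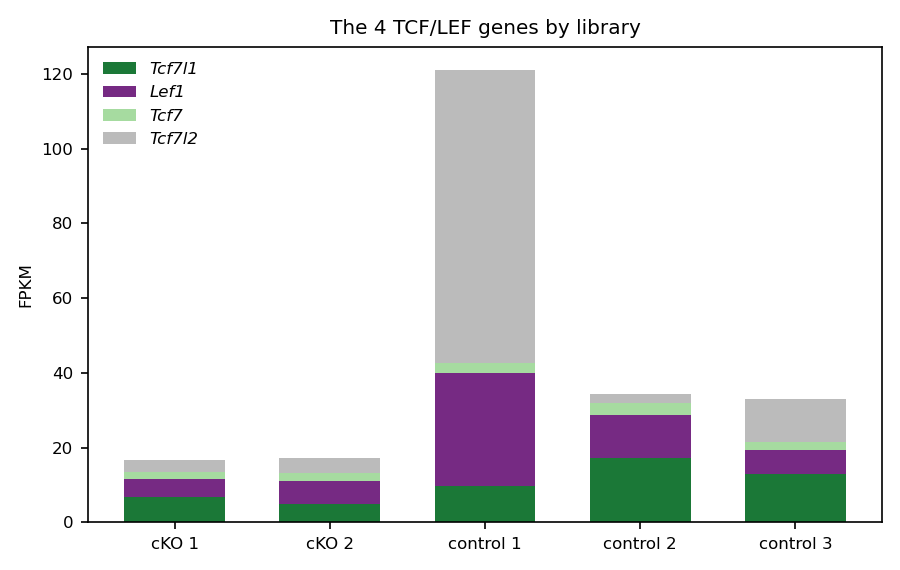
Summed FPKM of the 4 TCF/LEF genes in each library (y axis, from 0), stacked by gene, with the cKO libraries on the left. The cKO sums were 16.8 and 17.3 FPKM, and the tall bar of control replicate 1 (121 FPKM) is mostly Tcf7l2.

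Control replicate 2 held the highest value of 6 of the 9 tested genes, against 34.8% of all tested loci. It was also highest for all 8 intermediate progenitor markers, the transit-amplifying cells of the cortical wall. That list summed to 303 and 232 FPKM in cKO, against 320.2, 763 and 476 FPKM in control replicates 1 to 3. Of its 8 genes, 5 lay below every control in both cKO libraries, and 5 were lower at an unadjusted limma p under 0.05. All 8 had negative log2 changes, against 53.1% of all tested loci. The median of the 8 was -1.10 (-1.43 without control replicate 1), against -0.72 (-0.60) for the 9 tested members. For the counts of this and the following lists, 15.6% of all tested loci lay below every control and 13.4% above. At an unadjusted limma p under 0.05, 4.37% of loci were lower and 3.08% higher. The 11 radial glia markers, which mark the cortical stem cells, summed to 1456 and 1539 FPKM in cKO, against 1414, 1951 and 1615 FPKM in the controls, with Vim and Fabp7 making most of each sum. Of the 11, 4 lay below every control and 1 above, 3 were lower at an unadjusted limma p under 0.05, and the median log2 change was -0.28 (-0.37 without control replicate 1). The 11 genes of the cortical hem and choroid plexus summed to 13.3 and 23 FPKM in cKO, against 60.6, 31.7 and 23.5 FPKM in the controls. Otx2 alone gave 2.37 and 7.55 FPKM in cKO, against 42.3, 1.5 and 4.38 FPKM in the controls, and so most of the sum of control replicate 1. Ttr, Wnt3a and Rspo3 of the same list were lowest in that library. This list shares 5 genes with the ligand and R-spondin genes described below, so the results of these lists are not independent. Of the 8 tested genes of this list, 2 lay below every control and all 8 had negative log2 changes, against 53.1% of all tested loci. Their median log2 change was -0.64, but -0.34 for the 7 tested without control replicate 1. For Otx2 the cKO mean was 4.96 FPKM, above the 2.94 FPKM mean of control replicates 2 and 3. Folr1, a choroid plexus gene, was listed at 0 in both cKO libraries. The 10 ventral telencephalon markers summed to 486 and 556 FPKM in cKO, against 304, 248 and 400.1 FPKM in the controls, and 7 of the 10 lay above every control in both cKO libraries. The 11 microglia markers summed to 105 and 101 FPKM in cKO, against 32.9, 50.6 and 39.99 FPKM in the controls, and 10 of the 11 lay above every control. Endothelial cells of the brain respond to Wnt and express several of the 10 genes. Their 12 markers summed to 132 and 134 FPKM in cKO, against 127, 155 and 126 FPKM in the controls, so the cKO sums lay within the control range. The 9 cortical neuron markers summed to 2305 and 1728 FPKM in cKO, against 1912, 2293 and 2123 FPKM in the controls, and 3 of the 9 lay above every control. The 7 pericyte markers summed to 34.9 and 41.6 FPKM in cKO, against 31.2, 24.9 and 25.4 FPKM in the controls, and 4 of the 5 tested lay above every control. The 8 markers of the meninges summed to 14.54 and 17.2 FPKM in cKO, against 18, 32.5 and 20.7 FPKM in the controls, and the 7 erythroid loci to 1531 and 1711 FPKM in cKO, against 1478, 1626 and 1604 FPKM in the controls. The part of these shifts in the values of the 10 genes was not tested.

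Of 32 genes of the cytoplasmic and nuclear machinery, all tested, limma called none at an adjusted p under 0.05. At an unadjusted p under 0.05, 2 of the 32 were lower, against 4.37% of all tested loci, and none was higher, against 3.08%. Below every control lay 4 of the 32, against 15.6% of loci, and above every control 1, against 13.4%. Their median log2 change was -0.12 (-0.10 without control replicate 1). Ctnnb1, the gene of β-catenin, had 421 and 494 FPKM in the cKO libraries, against 403, 527 and 449.6 FPKM in the controls, and the 95% interval of its log2 change was -0.49 to 0.49. The 2 lower genes were Tle2, a Groucho family corepressor, and Dvl1, a Dishevelled scaffold. Tle2 had 8.52 and 9.59 FPKM in cKO, against 12.4, 11 and 12.2 FPKM in the controls. Dvl1 had 31.4 and 24.8 FPKM in cKO, against 39.1, 41.8 and 34.3 FPKM in the controls. Both lay below every control, as did Axin1, the paralog of Axin2, at 18.7 and 16.3 FPKM in cKO, against 19.7, 25.3 and 22.8 FPKM in the controls. The cKO mean of Axin1 was 77.4% of the control mean, and that of Axin2 was 51.5%.

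Of 15 receptor genes, 11 were tested, and none was called by limma at an adjusted p under 0.05. At an unadjusted p under 0.05, 1 was lower, against 4.37% of loci, and none was higher, against 3.08%. Their median log2 change was -0.12 (-0.28 without control replicate 1). Of the 11, 3 lay below every control, against 15.6% of loci, and none lay above, against 13.4%. The gene at an unadjusted p under 0.05 was Fzd1, a Frizzled receptor, with 19.8 and 13 FPKM in cKO, against 36.1, 32.8 and 21.6 FPKM in control replicates 1 to 3. Fzd9 lay below every control as well, at 6.65 and 8.73 FPKM in cKO, against 8.88, 29.8 and 13.9 FPKM in the controls, and the nearest libraries were close. Fzd7, a Frizzled gene of progenitors, overlapped between groups at 3.83 and 2.87 FPKM in cKO, against 5.73, 7.46 and 3.71 FPKM in the controls. Of 23 ligand and R-spondin genes, 5 are also on the cortical hem and choroid plexus list. Of the 23, 10 were tested, and limma called none at an adjusted p under 0.05. None passed an unadjusted p under 0.05 either, against 4.37% of loci lower and 3.08% higher. Their median log2 change was -0.29 (-0.33 without control replicate 1), and 8 of the 10 were negative, against 53.1% of loci. None lay below or above every control, against 15.6% and 13.4% of loci. The 3 with the smallest p, Wnt7a, Wnt8b and Rspo1, overlapped between groups. Wnt8b, a ligand of the cortical hem, had 0.321 and 1.75 FPKM in cKO, against 1.41, 3.55 and 1.45 FPKM in the controls. Wnt7a, expressed by cortical progenitors, had 20.6 and 15.3 FPKM in cKO, against 12.5, 14.4 and 16 FPKM in the controls.

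Of 14 other genes described as Wnt targets elsewhere, 7 were tested and none was called by limma at an adjusted p under 0.05. At an unadjusted p under 0.05 none was lower, against 4.37% of loci, and 1 was higher, against 3.08%. Their median log2 change was -0.02, but 0.13 without control replicate 1. The higher gene was Sp8, a zinc finger factor related to Sp5, with 9.35 and 10.7 FPKM in cKO, against 5.05, 4.28 and 5.71 FPKM in the controls. Its log2 change was 0.88 (SE 0.16, limma adjusted p = 0.575). Sp8 is also on the ventral telencephalon list, whose 10 tested genes all had positive log2 changes, while 53.1% of all tested loci were negative. Ephb2, an Eph receptor, had 33.3 and 30.1 FPKM in cKO, against 52.1, 40.1 and 37.7 FPKM in the controls, and lay below every control. Ephb3 overlapped, at 4.47 and 6.2 FPKM in cKO, against 9.61, 7.52 and 5.8 FPKM in the controls.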

How the data were processed

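Groups and replicate numbers of the 5 RNA libraries came from the titles and genotypes in the labels. The deposited table gives FPKM per locus, for each library and as the authors' group means. The authors' comparison in it holds, per the file headers, 1 log2 fold change for each locus, with its p-value, its q-value and the score of the test. The unit FPKM was read from the table's layout and values. Per the submitters' processing notes, CASAVA, TopHat, Cufflinks, Bowtie2 and MACS were named with the build mm10, and annotation, strand setting and depth were not given in the sources used here. FPKM is relative to library size, so abundant transcripts lower the rest, and no count-based test was possible.

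limma 3.58.1 (R 4.3.3) was fitted to log2(FPKM + 1) with an intensity trend (3 residual degrees of freedom, prior 2.49), and the procedure was tested on simulated data. Loci averaging under 1 FPKM were left out. Permutation tests used the absolute difference of log2 means over 10 splits. Alternatives were another pseudocount (0.1), no filter or a minimum of 5 FPKM, median-of-ratios scaling, no trend, a replicate block and each library left out. Positions and promoter windows came from RefSeq in GRCm38.p6, the assembly mm10 names, with positions matched by symbol for all 10 genes. A planned protein comparison was not made. The members and lists were chosen with earlier results of these data known. Named genes were the members, Chd8, Tcf7l2, Ctnnb1 and the 3 tested genes with the smallest p in each other Wnt list. Single marker genes and those in the closing observations were named after their values were seen.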

Additional observations from a re-analysis of the deposited data

How the results depend on the processing

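No member passed an adjusted p under 0.05 under any of the 11 alternatives, and none of the other Wnt lists held a call. Axin2, Nkd1, Apcdd1, Tcf7l1, Lef1, Sp5 and Tcf7 had negative log2 changes under every alternative run for them. Of the 4 members at an unadjusted limma p under 0.05, Nkd1 stayed under it in all 11 (log2 change -0.80 to -0.66), Tcf7l1 in 10 (-1.26 to -0.84), Axin2 in 9 (-1.14 to -0.58, p up to 0.132) and Apcdd1 in 7 (-0.72 to -0.40, p up to 0.1903). With single libraries left out, the number of members lower at an unadjusted p under 0.05 was 1 to 6, against 4 with all libraries. It was 1, Nkd1, without cKO replicate 2, against 1.23% of loci, and 6, with Lef1 and Sp5 added, without control replicate 3, against 1.92% of loci. The number below every control ran from 5 to 7, while the share of loci below every control ran from 19.4% to 34.7%, so these counts are not comparable with the 5 of all libraries. The number above every control was 0 to 1. It was 1 without cKO replicate 2 (Nkd2, against 21.4% of loci) and without control replicate 2 (Znrf3, against 18.2%). A cKO group left with 1 library was assumed to vary like the controls. The log2 change of Nkd2 ran from -0.21 to 0.38, that of Znrf3 from -0.010 to 0.10 and that of Ctnnb1 from -0.12 to 0.11. Ctnnb1 was 0.013 with median-of-ratios scaling. The cause was not tested.

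Same-numbered libraries are not stated to be paired. Their deviations from the group means correlated at -0.07 for number 1 and -0.11 for number 2. With 2 cKO libraries the deviations of these mirror each other, so the correlations are not separate checks and cannot decide pairing. With the replicate block, which takes control replicate 3 out of the contrast, 5 members were lower at an unadjusted p under 0.05, against 1.18% of loci. Apcdd1 was not among them, and Lef1 and Sp5 joined Axin2, Nkd1 and Tcf7l1. Znrf3 was -0.010 and the median of the members was -0.74. Depth is unknown, so how it limits Rnf43 and the other low genes cannot be stated.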

Other observations

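Several low Wnt genes outside the 10 also had their highest value in control replicate 1, the library that was highest for 24.1% of all tested loci. Fzd10, a Frizzled gene, had 0.298 and 0.392 FPKM in the cKO libraries, against 9.95, 0.878 and 0.469 FPKM in control replicates 1 to 3. The ligand Wnt1 had 0.143 and 0.198 FPKM in cKO, against 1.55 and 0.0471 FPKM in control replicates 1 and 2, and was listed at 0 in control replicate 3. Wif1, a secreted Wnt inhibitor, had 0.289 and 0.466 FPKM in cKO, against 1.67, 0.556 and 0.554 FPKM in the controls.

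Other Wnt genes were highest in control replicate 2, as were 34.8% of all tested loci. Of the 23 ligand and R-spondin genes, 9 were highest there. Wnt7b, a ligand of the cortex, had 64.4 and 44.3 FPKM in cKO, against 49, 125 and 68.9 FPKM in control replicates 1 to 3. Rspo1, an R-spondin that amplifies Wnt signals, had 0.977 and 2.77 FPKM in cKO, against 1.57, 5.98 and 3.26 FPKM in the controls. Wnt3a, a hem ligand, had 0.186 and 0.442 FPKM in cKO, against 0.119, 1.91 and 0.346 FPKM in the controls.

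The corepressor gene Aes and the kinase gene Csnk1e stood apart in cKO replicate 2. Aes had 272 and 93.1 FPKM in cKO, against 262, 363 and 302 FPKM in the controls. Csnk1e had 178 and 81.4 FPKM in cKO, against 172, 177 and 176 FPKM in the controls.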
